A study of Mus musculus with 6 samples.

Results

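The optic nerve of mice lacking leukemia inhibitory factor (LIF) was compared between postnatal day 10 and postnatal day 14, the days over which the nerve of the mouse takes on much of its myelin. The comparison rests on 2 of the 6 arrays of the series, chosen by their labels as LIF knockout at day 10 and at day 14. Every group is 1 array of total RNA from pooled whole nerves, labelled as male and left untreated after dissection. The knockout carried LIF-/- on a CD1 background, and the reference animals were CD1 wild type, an outbred stock. A pool held 10 nerves at day 10, 8 at day 14 and 4 at day 35, the adult age. The knockout lacks the factor in all its tissues and at all ages, so the animals of both ages had developed without it. The day 14 minus day 10 difference in the knockout is given throughout as a description with no test, since no group has a second pool. The same difference in the wild-type pools, which were hybridised on the same slide, is given beside it.

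LIF is a secreted cytokine of the interleukin-6 family that binds the LIF receptor with gp130 and activates the kinases JAK1 and JAK2 and the transcription factor STAT3. Astrocytes release it, and it is known to favour the survival and maturation of oligodendrocytes, the glia that wrap axons with myelin. An oligodendrocyte precursor leaves the cell cycle, passes through a short stage before myelination, and then makes sheath proteins, cholesterol and galactolipids in large amounts. The optic nerve holds axons of retinal ganglion cells with oligodendrocytes, astrocytes, microglia, blood vessels and a collagen sheath, and no neuronal cell bodies.

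The arrays carried 24606 probes after control rows were left out, of which 13292 were detected in the knockout at day 10 and 12524 at day 14, with 12590 and 12222 in the wild type. The knockout array of day 14 was the dimmest of the slide, with a mean signal of 236 against 280 to 310 on the other 3, and its median was 51.8 against 61.0 to 61.9. Quantile normalization set the 6 arrays on 1 scale. Without it, the median over all named genes was -0.40 log2 units in the knockout, so that a positive difference smaller than this shift would carry the opposite sign on unscaled signals. Differences are therefore read relative to the median of all named genes, which was -0.02 in both genotypes on the normalized scale. The brightest probes, such as those of Mbp, Cldn11 and Mag, take their normalized value from their rank and say little about change. The Lif probe had a log2 signal of 5.71 at day 10 and 5.13 at day 14 in the knockout, against 5.47 and 5.48 in wild-type nerve, all close to background. The labels do not place the probe relative to the disruption of the gene, so its signal is no check on genotype. The defining markers of the nerve's glia were present on both knockout arrays: Mbp, Mag, Mog and Cnp of oligodendrocytes, Pdgfra and Cspg4 of precursors, Gfap of astrocytes, and C1qa and Cx3cr1 of microglia. The Y-linked genes Eif2s3y and Kdm5d had log2 signals of 8.25 and 5.34 in the knockout at day 10 and 9.16 and 7.0 at day 14. The wild-type pool of day 10 had no detected Eif2s3y, at 4.74, against 9.35 at day 14, while its Kdm5d was detected at 6.06 and then 7.05. The difference between the wild-type pools in this gene stands beside every comparison with the wild type below.

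By count, more probes passed 1 log2 unit between the days in the knockout than in the wild type, with no test of that difference. Of 11251 probes detected on all 4 arrays of these days, 336 were higher by over 1 log2 unit at day 14 in the knockout (2.99%) and 267 lower (2.37%). In the wild type, 161 of them were higher (1.43%) and 150 lower (1.33%). The standard deviation of the difference over these probes was 0.51 log2 units in the knockout, against 0.41 in wild-type nerve. The gene lists below use a wider set, the 13827 probes detected on at least 1 knockout array. That filter keeps 1838 probes seen on 1 knockout array alone and leaves out probes seen in the wild type alone, so its counts do not compare the genotypes evenly. Of these probes, 373 were higher by over 1 log2 unit at day 14 (2.7%) and 373 lower (2.7%). For the same probes in the wild type, 206 were higher (1.49%) and 202 lower (1.46%). Among 6558 named genes, each represented by its brightest probe, 232 were higher by over 1 log2 unit in the knockout (3.54%) and 247 lower (3.77%), against 123 (1.88%) and 142 (2.17%) in the wild type. Over the 6099 named genes detected on all 4 arrays, the shares were 3.39% higher and 3.02% lower in the knockout, against 1.61% and 1.8% in wild-type nerve. Of the 232 genes higher in the knockout, 30 also passed 1 log2 unit in the same direction in the wild type and 7 passed it in the opposite one, with a median wild-type difference of 0.40. Of the 247 lower genes, 51 passed in the same direction and 8 in the opposite one, with a median of -0.41. Normalization affects the split: on signals that were not scaled between arrays, 135 probes were higher and 1164 lower in the knockout.

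**Figure D1:**
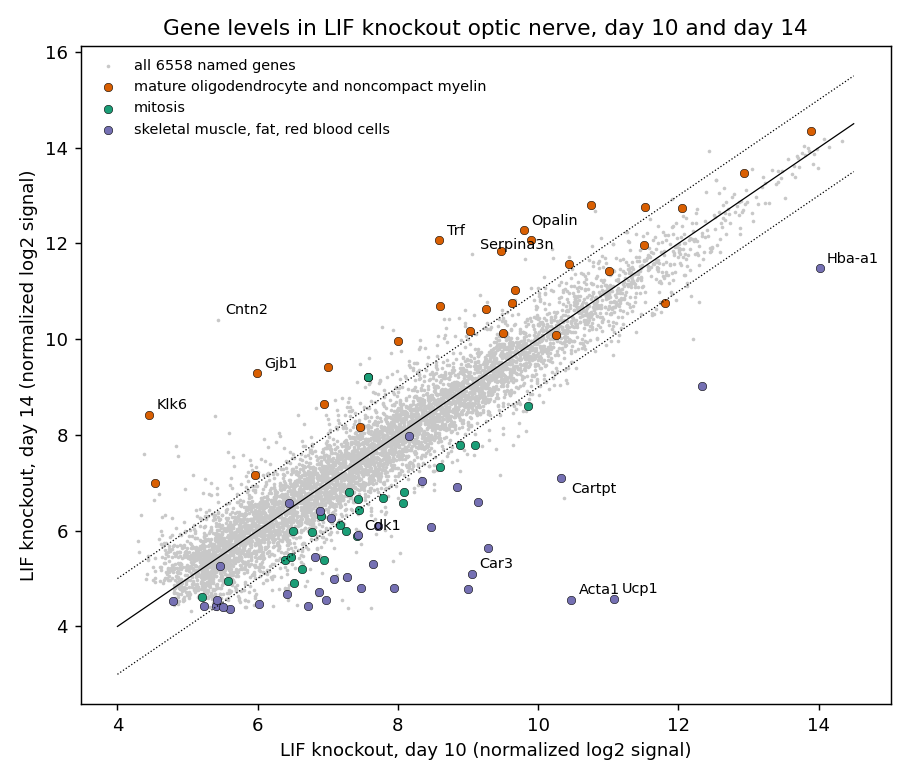
Normalized log2 signal of every named gene in the LIF knockout at day 10 (horizontal axis) and day 14 (vertical axis). The solid line marks equal levels and the dotted lines 1 log2 unit to either side; coloured points are listed genes of mature oligodendrocytes and noncompact myelin, of mitosis and of other tissues, and Anln, which is in the first and the second of these groups, is drawn in the colour of mitosis. Mature oligodendrocyte genes lie mostly above the upper dotted line and the tissue markers mostly below the lower one.

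Genes of the mature oligodendrocyte stood highest at day 14. Of 21 listed enzymes, carriers and other products of mature oligodendrocytes, 16 were measured, and 14 of these were over 1 log2 unit higher at day 14 in the knockout, against 3.54% of all named genes. In the wild type 2 of the 16 passed that size, against 1.88% of all named genes. Their median difference was 1.68 log2 units in the knockout, against 0.47 in wild-type nerve, and the knockout difference was the larger in 15 of the 16, against 49.9% of all named genes. Relative to the median of all named genes, the knockout median lay between 1.43 and 1.70 under all alternatives tried. Trf, which encodes the iron carrier transferrin that oligodendrocytes make in quantity, read 8.59 at day 10 and 12.06 at day 14 in the knockout. Wild-type nerve read 11.38 and 11.81 for Trf, and the day 35 arrays read 13.44 in the knockout, against 13.47 in wild-type nerve. The knockout array of day 10 thus stood alone as low for Trf, and the day 14 level was 11.1-fold higher than it.

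Klk6, a secreted serine protease of myelinating cells, was not detected in the knockout at day 10 and read 8.42 at day 14, at least 12.4-fold higher. Wild-type nerve gave 6.30 and 6.19 for Klk6, and at day 35 it read 10.23 in the knockout, against 11.30 in wild-type nerve. The knockout pool of day 14 was therefore above the wild-type pool of the same day for this gene. Hapln2, a link protein of the extracellular matrix at nodes of Ranvier, was also undetected at day 10 and reached 7.01 at day 14, at least 4.65-fold higher, with 5.49 and 6.77 in the wild type. Apod, a lipid carrier, read 9.47 and 11.84 in the knockout, against 11.60 at day 10 in wild-type nerve. Cryab, a small heat shock protein of oligodendrocytes, read 10.76 and 12.79 in the knockout, against 12.24 and 12.64 in wild-type nerve. At day 14 the knockout minus wild type difference was -0.16 for Apod and 0.15 for Cryab, so the pools of that age were close. The other members past 1 log2 unit were Pdlim2 (2.10), Ppp1r14a (1.96), Car2 (1.70), Anln (1.65), Adamts4 (1.36), Fth1 (1.23), Gsn (1.19), Qdpr (1.14) and Ndrg1 (1.13). Gstp1 was higher by 0.46. S100b, a calcium-binding protein that astrocytes make as well, went the other way, from 11.81 to 10.75, with a wild-type difference of -0.03. A further probe of Car2, not detected on both arrays, differed by -0.05.

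The difference of the pools in these genes lay at day 10. The median level of the 16 genes was 8.82 in the knockout at day 10 and 10.72 at day 14, against 10.43 and 10.87 in the wild type. Gene by gene, the median of knockout minus wild type was -1.09 log2 units at day 10 and -0.14 at day 14. These gaps share the knockout arrays with the change itself and are no separate evidence for it. Fat and red blood cell genes, given below, were higher in the day 10 knockout pool than in the wild-type pool of that day, with median gaps of 0.99 and 0.66 log2 units, and their part in these values was not tested. Skeletal muscle genes had a median gap of -0.43 between the same pools. In whole nerve, fewer cells of a type and less RNA per cell cannot be told apart.

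**Figure D2:**
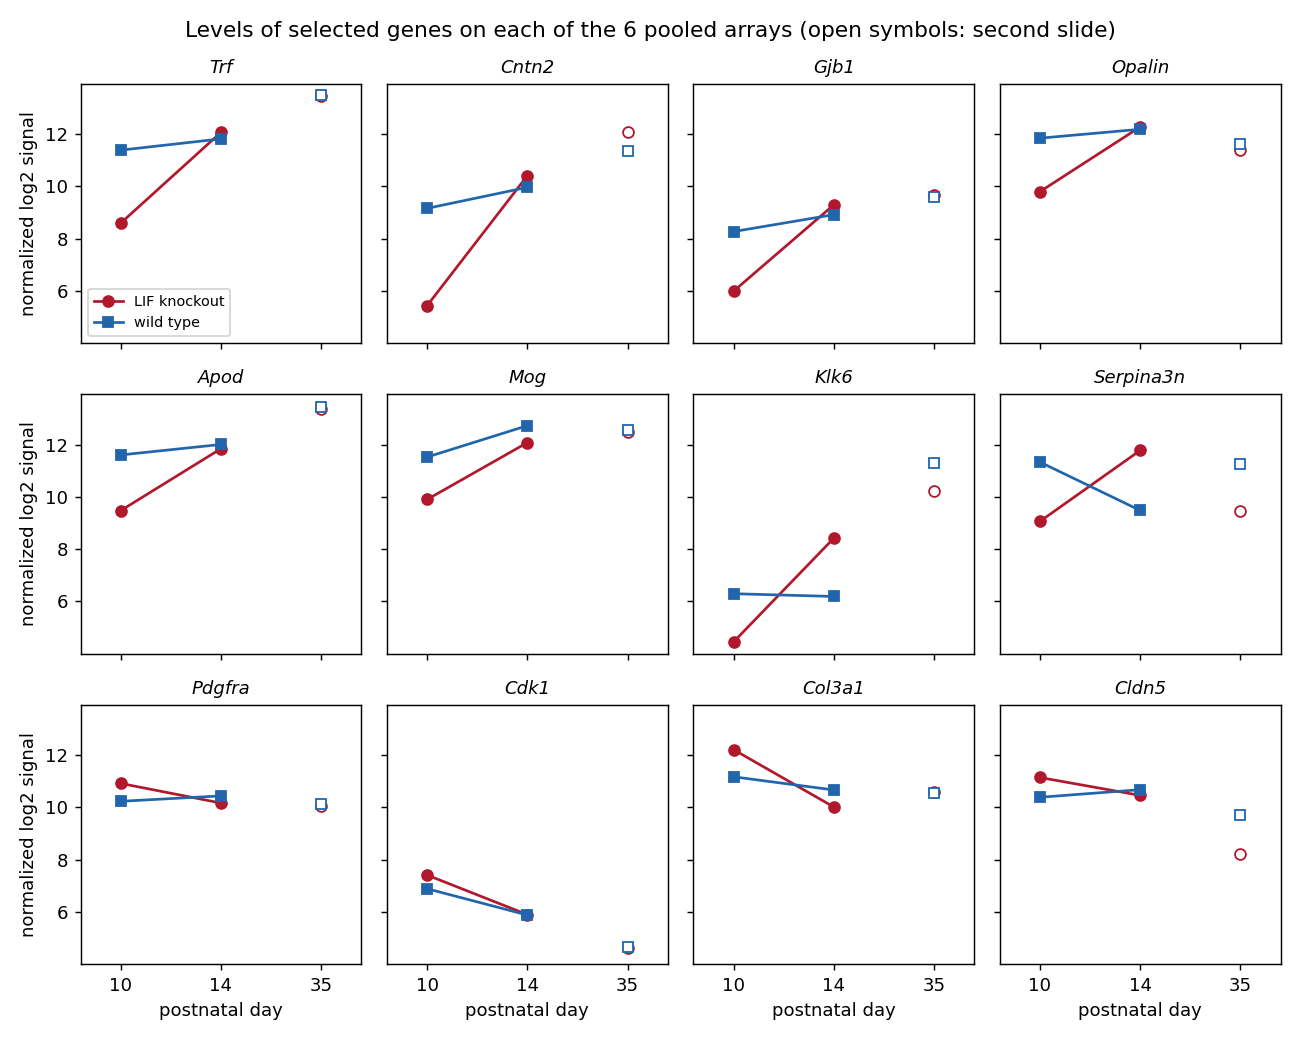
Normalized log2 signal of 12 genes on each of the 6 pooled arrays, by postnatal day, with circles for LIF knockout and squares for wild type. Open symbols mark the second slide, and each point is 1 array. The oligodendrocyte genes Trf, Cntn2, Gjb1, Opalin, Apod and Mog are low in the knockout at day 10 alone, whereas Serpina3n crosses over between genotypes and Cdk1 is lower at day 14 in both.

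Proteins of the noncompact myelin and of the outer sheath moved in the same direction. Of 13 measured members, 12 were above 0 in the knockout (48.5% of all named genes). In the knockout 6 were over 1 log2 unit higher, against 3.54% of all named genes. In the wild type 1 passed that size, against 1.88%. The medians were 0.69 in the knockout, against 0.45 in wild-type nerve. Gjb1, which encodes connexin 32 of the gap junctions within the sheath, read 5.99 at day 10 and 9.29 at day 14 in the knockout, a 9.84-fold difference, against 8.27 and 8.92 in the wild type. Opalin, a membrane glycoprotein of myelinating oligodendrocytes, read 9.80 and 12.27 in the knockout, against 11.84 and 12.18 in wild-type nerve. Mog, a myelin surface glycoprotein that appears late in maturation, read 9.90 and 12.07 in the knockout, against 11.52 and 12.72 in wild-type nerve. All 3 genes were lowest, among the 4 arrays of these days, in the knockout at day 10. Mog was the one of them in which the wild type also passed 1 log2 unit, at 1.20, and a further Mog probe differed by 2.13 in the knockout. Evi2a (2.42), Omg (1.37) and Cnp (1.13), the last an enzyme of the cytoplasmic channels of myelin, were also past 1 log2 unit. Jam3, an adhesion molecule of the sheath, differed by -0.17. The remaining 6 members lay between 0.42 and 0.69.

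Among 6 measured genes of compact myelin, 1 passed 1 log2 unit in the knockout, against 3.54% of all named genes. Mal, a proteolipid that sorts proteins to the sheath, read 10.77 and 11.94 by its brightest probe in the knockout, against 11.95 and 12.23 in wild-type nerve. A further Mal probe read 9.19 and 12.24, a difference of 3.04, so both probes were higher at day 14 but disagreed on the size. Mobp, a cytoplasmic protein of the compacted layers, read 12.54 and 13.33 in the knockout, against 12.89 and 13.44 in wild-type nerve. Pllp differed by 0.64 and Pmp22, which fibroblasts and Schwann cells also make, by -0.39. Mbp read 14.08 and 14.19 in both genotypes and Cldn11 read 13.97 on both knockout arrays, values set by rank among the brightest probes.

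The proteins that join the sheath to the axon held the gene with the largest difference among all genes detected on both arrays. Cntn2, an adhesion molecule of the juxtaparanode that clusters potassium channels, read 5.44 at day 10 and 10.41 at day 14 in the knockout. Cntn2 read 9.16 and 9.96 in the wild type, and 12.06 and 11.35 at day 35 in knockout and wild type. The difference in the knockout was 31.3-fold, and the low value of day 10 was again the one that stood apart. Of 11 measured members of the node and paranode list, 5 were over 1 log2 unit higher in the knockout (background 3.54%), against 3 in wild-type nerve (background 1.88%), with medians of 0.82 and 0.71. Kcna1, a potassium channel that sits beside the paranode, read 5.08 and 7.16 in the knockout, against 5.97 and 7.0 in wild-type nerve. Lgi3, a secreted protein of oligodendrocytes, read 9.81 and 11.68 against 10.94 and 11.45. Nfasc, whose products hold the paranode and the node together, differed by 1.36 in the knockout, against 0.06 in wild-type nerve. Cntnap2, the partner of Cntn2 at the juxtaparanode, read 8.52 and 6.84 in the knockout but 6.40 and 8.07 in the wild type. The 2 partners thus differed in opposite directions in the knockout.

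Lipid synthesis for the sheath differed less in size. All 14 measured genes of cholesterol synthesis were above the median of all named genes in the knockout. The list median was 0.67, against 0.12 in the wild type. Of the 14 genes, 2 were over 1 log2 unit higher in the knockout (background 3.54%) and none in the wild type (background 1.88%). Dhcr7, which catalyses the last step to cholesterol, read 7.64 and 8.89 in the knockout, against 8.94 and 8.68 in wild-type nerve. Cyp51, the lanosterol demethylase, read 8.42 and 9.64 in the knockout, against 9.44 and 9.60 in wild-type nerve. Sqle, the squalene epoxidase, read 10.49 and 11.46 against 10.92 and 11.39. By the brightest probe of these 3 genes the knockout array of day 10 was the lowest of the 4. The day 14 levels of these probes were above the wild type by 0.21, 0.03 and 0.07 log2 units. A further, dimmer Sqle probe differed by 0.36 in the knockout, against 1.15 in wild-type nerve, so the probes disagreed on which genotype differed more. Mvd, the decarboxylase of the mevalonate branch, differed by 0.74 in the knockout, against 0.66 in wild-type nerve, so it did not separate the genotypes. The early enzyme Hmgcs1 read 13.87 and 13.93, near the top of the scale. Srebf2, the transcription factor that drives the pathway, differed by 0.83 in the knockout, against 0.09 in wild-type nerve.

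Genes of this pathway are bound by SREBP together with the CCAAT-binding factor NF-Y, so their promoters were searched. The RefSeq windows of GRCm38.p6 run from 250 bases before a gene's start to 50 after it, and the letters CCAAT were sought on both strands. A gene counted if any of its windows held the motif. All 12 cholesterol genes with a window held it (100%), against 43.2% of the 5306 measured genes with one. The share was 41.1% of all 27025 genes with a window, and 37.4% of the 32851 single windows. The part before the start is shown for Cyp51 and Mvd, each on the strand of the gene, with CCAAT or its complement ATTGG in capitals. Both were taken by size of rise in the knockout, among members with a single window and CCAAT before the start. A match in each was therefore required by the choice. The difference between genotypes was large for Cyp51 and small for Mvd.
Cyp51 chr5:4104698-4104947 (minus strand): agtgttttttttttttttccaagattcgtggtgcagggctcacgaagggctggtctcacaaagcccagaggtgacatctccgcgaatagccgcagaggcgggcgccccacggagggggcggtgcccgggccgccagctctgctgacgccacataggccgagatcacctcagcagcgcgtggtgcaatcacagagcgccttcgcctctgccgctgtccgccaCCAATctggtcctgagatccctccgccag
Mvd chr8:122443423-122443672 (minus strand): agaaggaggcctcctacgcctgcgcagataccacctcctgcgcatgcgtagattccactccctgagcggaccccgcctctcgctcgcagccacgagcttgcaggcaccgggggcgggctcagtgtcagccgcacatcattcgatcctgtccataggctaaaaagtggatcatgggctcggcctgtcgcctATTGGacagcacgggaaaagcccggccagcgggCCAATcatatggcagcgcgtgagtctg
The Cyp51 stretch held 1 match and the Mvd stretch 2. A match is a description and not a measured binding site.

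Galactolipids, the glycolipids that give myelin its stability, are made by a short chain of enzymes whose 15 listed genes were all measured. Of these, 13 were above 0 in the knockout (48.5% of all named genes) and 4 were over 1 log2 unit higher (background 3.54%), with none past that size in the wild type (background 1.88%). The medians were 0.52 and 0.30. Fa2h, which adds the hydroxyl group to the fatty acids of galactolipids, read 10.89 and 12.11 in the knockout, against 11.73 and 12.20 in wild-type nerve. Elovl1 and Cers2, which make and use very long acyl chains, differed by 1.77 and 1.16, and Sptlc1, of the first step of sphingolipid synthesis, by 1.09. The further probes of Elovl1 differed by 0.63 and 0.59. Ugt8a, the galactosyltransferase itself, differed by 0.91 and Gal3st1, the sulfotransferase that makes sulfatide, by 0.72. Arsa, which degrades sulfatide in lysosomes, differed by -0.21. Among 12 measured genes of fatty acid synthesis the median was 0.23 in the knockout, against 0.04 in wild-type nerve, and Slc25a1, the mitochondrial citrate carrier, was the member past 1 log2 unit, at 1.21. Fasn differed by 0.16 and Scd2 by 0.04. On unscaled signals the median of this list was -0.17 in the knockout and that of sterol regulation and uptake -0.23. In the list of sterol regulation and uptake, with a normalized median of 0.21 over 11 genes, Abca1, which exports cholesterol, differed by -1.30, from 6.53 to 5.23.

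**Figure D3:**
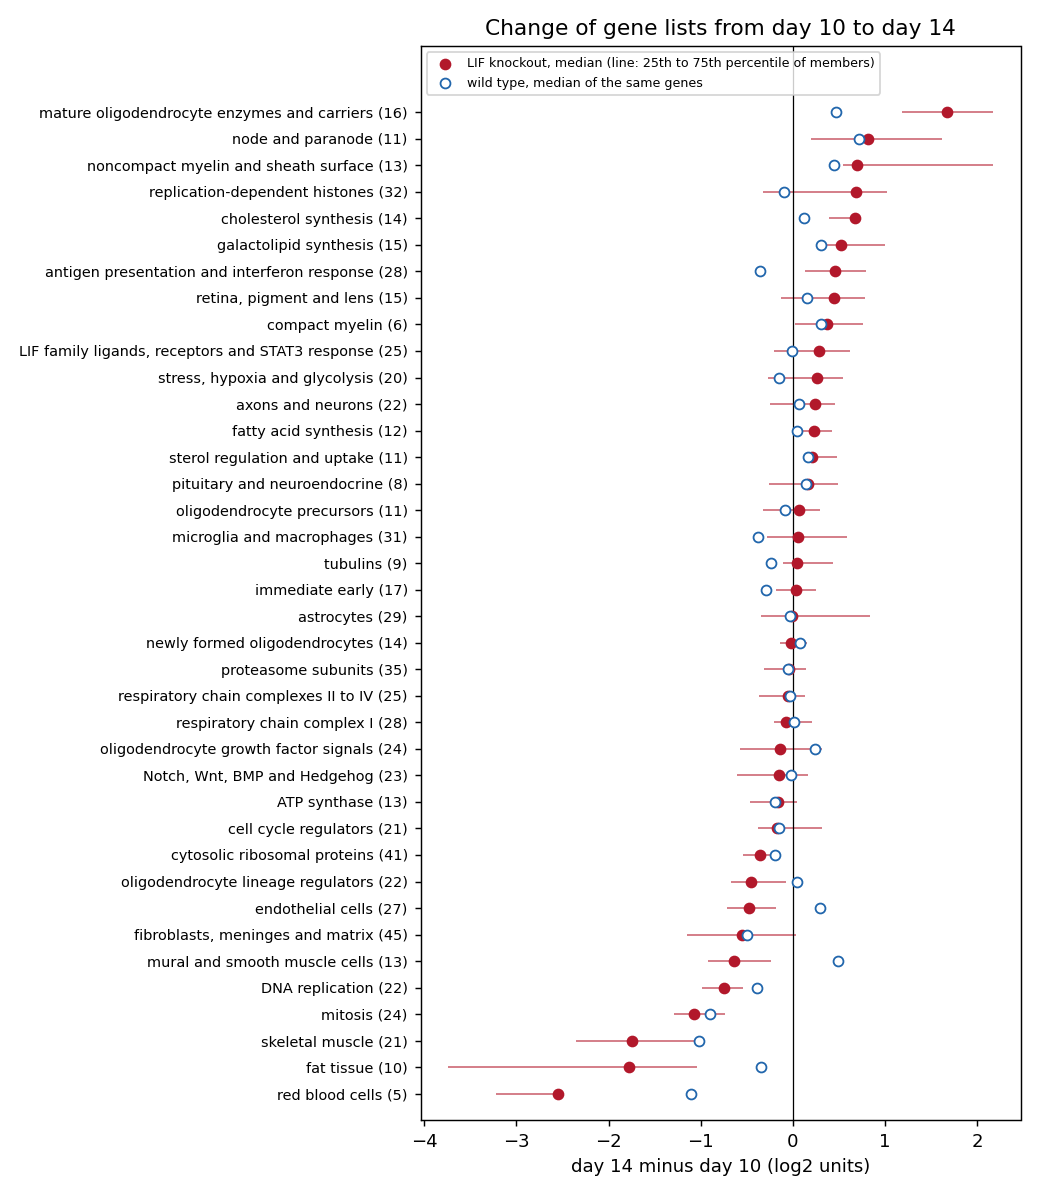
Median day 14 minus day 10 difference, in log2 units, of each gene list with at least 5 measured members; the number measured is in parentheses. Filled circles are the LIF knockout, with a line from the 25th to the 75th percentile of its members, and open circles the same genes in the wild type. Mature oligodendrocyte genes lie at 1.68 in the knockout, against 0.47 in wild-type nerve, and red blood cell, fat and muscle genes lie lowest.

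Lists of the earlier stages of the lineage had medians near 0. The 14 measured genes of newly formed oligodendrocytes had a median of -0.02 in the knockout, against 0.08 in wild-type nerve, and only Nfasc, which belongs to the node list too, passed 1 log2 unit. Enpp6, Gpr17 and Bcas1, markers of cells about to myelinate, differed by -0.15, -0.06 and 0.10. The 11 measured precursor genes had a median of 0.06 in the knockout. Pdgfra, the growth factor receptor of precursors, read 10.91 and 10.16 in the knockout, against 10.23 and 10.44 in wild-type nerve. Cspg4, the NG2 proteoglycan, read 6.68 and 6.74 against 6.85 and 6.84. Both markers remained within 1 log2 unit on the knockout arrays. Nnat was the precursor gene past that size, at 1.18.

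Transcriptional regulators of the lineage were lower at day 14 in the knockout, with a median of -0.45 over 22 measured genes against 0.05 in the wild type. Of these, 17 were below 0, against 51.4% of all named genes, and 3 passed 1 log2 unit (background 3.77%). Id2 and Id4, helix-loop-helix proteins without a DNA-binding domain that hold back differentiation, read 10.03 and 9.02, and 10.43 and 9.40. In the wild type Id2 read 9.06 and 9.12 and Id4 read 9.80 and 9.84. Both were highest, among the 4 arrays, in the knockout at day 10. Sox2, a factor of stem cells, precursors and astrocytes, read 9.88 and 8.86 in the knockout, against 7.93 and 8.69 in wild-type nerve, but a further Sox2 probe differed by 0.23. Hes5 (-0.83), Hes1 (-0.64), Sox6 (-0.67) and Sox5 (-0.66), which act before maturation, differed by less, although further Sox5 probes differed by -1.12 and 0.10. Nkx6-2, a homeobox factor of myelinating oligodendrocytes, was the regulator past 1 log2 unit upward, reading 6.96 and 8.66 in the knockout, against 8.08 and 8.44 in wild-type nerve. Further Nkx6-2 probes differed by 1.67 and 0.14. Sox10 and Olig1, which define the lineage, differed by -0.07 and 0.19.

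Genes of cell division were lower at day 14 in both genotypes. Of 24 measured mitosis genes, 15 were over 1 log2 unit lower in the knockout, against 3.77% of all named genes, and 9 in the wild type, against 2.17%. The medians were -1.08 and -0.91. Cdk1, the kinase that starts mitosis, read 7.41 and 5.90 in the knockout, against 6.89 and 5.88 in wild-type nerve, with 4.63 and 4.65 at day 35. The groups thus followed the same order of ages in both genotypes. Ccna2, its cyclin partner, read 6.51 and 4.92 against 5.69 and 4.64. Aurka (-1.56), Tpx2 (-1.48), Bub1b (-1.44), Prc1 (-1.31) and Plk1 (-1.26), which build the spindle or check its attachment, were lower to a like degree. Pttg1 and Spag5 differed between genotypes, at -1.29 and -1.10 in the knockout, against 0.88 and 1.20 in wild-type nerve. Anln, which acts in cytokinesis and is also a product of mature oligodendrocytes, was the member higher by over 1 log2 unit. Of 22 measured DNA replication genes, 21 were below 0 in each genotype, where the background was 51.4% in the knockout, with 52.1% in wild-type nerve. The medians were -0.75 and -0.39. In the knockout 5 were lower by over 1 log2 unit (background 3.77%), against 1 in wild-type nerve (background 2.17%). Of the 5 lower in the knockout, Rrm2, the small subunit of ribonucleotide reductase, was no longer detected at day 14. Mcm6 and Mcm5 of the replicative helicase differed by -1.31 and -1.15. Regulators of the cell cycle had a median of -0.18 over 21 genes. Ccnd2 differed by -1.04 and Wee1 by -1.20, and Cdkn1a, which arrests the cycle, by 0.85.

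Promoters of mitotic genes are known to carry the cell cycle homology region, TTTGAA, which the repressor complex of resting cells reads, often near CCAAT boxes. In the same windows and on both strands, TTTGAA was found in 14 of 20 mitosis genes (70%) and 14.3% of the 21 replication genes. The share was 13.9% of measured genes, 20.2% of all genes with a window, and 17.9% of single windows. CCAAT was found in 60% of the mitosis genes and 61.9% of the replication genes, against 43.2% of measured genes and 41.1% of all genes with a window. The 250 bases before the start are shown for Cdk1 and for Ube2c, the ubiquitin carrier of the anaphase complex. Both were taken by size of fall in the knockout, among members with a single window and both motifs before the start. Cdk1 differed by -1.51 and Ube2c by -1.03, where the list median was -1.08. Matches of both motifs were therefore required by the choice. Both genes were also lower at day 14 in the wild type. Capitals mark the matches of both motifs on either strand.
Cdk1 chr10:69352913-69353162 (minus strand): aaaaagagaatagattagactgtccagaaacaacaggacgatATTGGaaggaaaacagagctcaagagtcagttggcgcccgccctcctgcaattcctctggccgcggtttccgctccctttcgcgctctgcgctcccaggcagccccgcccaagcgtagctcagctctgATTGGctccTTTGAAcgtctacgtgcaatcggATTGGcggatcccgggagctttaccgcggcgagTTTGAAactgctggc
Ube2c chr2:164769679-164769928 (plus strand): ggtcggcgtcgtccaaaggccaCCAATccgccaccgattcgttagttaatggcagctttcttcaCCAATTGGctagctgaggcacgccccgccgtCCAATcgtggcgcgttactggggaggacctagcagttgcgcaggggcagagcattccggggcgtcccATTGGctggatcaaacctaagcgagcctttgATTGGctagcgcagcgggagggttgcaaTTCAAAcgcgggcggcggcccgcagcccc
The Cdk1 stretch held 2 matches of TTTGAA and 3 of CCAAT. The Ube2c stretch held 1 and 6, where 2 bases belong to overlapping matches. The match counts describe the letters and not a bound factor.

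Histone genes tied to replication did not follow the other replication genes as a group. Of 32 measured, 8 were over 1 log2 unit higher (background 3.54%) and 5 lower (background 3.77%) in the knockout, and their median was 0.69 against -0.09 in the wild type. The 5 lower genes were all H2A genes, H2ac22, H2ac12, H2ac10, H2ac23 and H2ac13, at -1.01 to -1.27, and the same 5 differed by -1.01 to -1.34 in the wild type. The 8 higher genes were H2B and H4 genes, among them H4c1, which read 7.20 and 8.76 in the knockout, against 8.81 and 8.43 in wild-type nerve. Histone genes are near-identical copies, so a probe may read several of them.

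The measured members of the LIF pathway were ligands, receptors, kinases, regulators of the signal and genes that STAT3 is known to induce. Of 25 measured, 6 were over 1 log2 unit higher at day 14 in the knockout (background 3.54%) and none lower (3.77%), while in the wild type none was higher (1.88%) and 2 were lower (2.17%). The list median was 0.28 in the knockout, against -0.01 in wild-type nerve, and it was -0.086 in the knockout when arrays were not scaled to each other. Of the ligands, Lif differed by -0.59, near background as given above, and Ctf1, which encodes cardiotrophin 1, by 0.33. Among the receptors, Osmr, which pairs with gp130 to bind oncostatin M, read 6.76 and 7.96 in the knockout, against 7.73 and 6.88 in wild-type nerve. Il6st, which encodes gp130, differed by -0.34 and Cntfr, the receptor of ciliary neurotrophic factor, was not detected at day 14. Of the kinases, Jak2 differed by 1.07, Tyk2 by 1.07 and Jak1 by -0.20, and a further Tyk2 probe differed by 0.17. Stat3 itself read 10.29 and 10.77 in the knockout, against 10.82 and 10.05 in wild-type nerve. Stat3 was thus lower than the wild type at day 10 and higher at day 14.

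Among the targets, Serpina3n, an acute phase protease inhibitor of reactive astrocytes, read 9.06 at day 10 and 11.78 at day 14 in the knockout. In the wild type Serpina3n read 11.33 and 9.48, and at day 35 it read 9.44 in the knockout, against 11.25 in wild-type nerve. The genotypes exchanged places at each age. Socs3, the feedback inhibitor of the pathway, read 7.35 and 7.59 in the knockout, against 8.00 and 6.41 in wild-type nerve. Cebpb differed by 1.0 in the knockout, against 0.03 in wild-type nerve, and Lcn2 reached detection at day 14. Icam1 and Timp1 differed by 0.62 and 0.08 in the knockout, against by -0.53 and -0.97 in wild-type nerve. The knockout difference was the larger in 19 of the 25 genes, against 49.9% of all named genes. The STAT element, TTCNNNGAA, was found in 3 of the 22 members with a promoter window (13.6%), against 7.82% of measured genes. The share was 9.55% of all genes with a window and 8.3% of single windows.

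Growth factor signals to the lineage had a median of -0.14 over 24 measured genes in the knockout, against 0.24 in wild-type nerve. In the knockout 4 were lower by over 1 log2 unit (background 3.77%), against 2 in wild-type nerve (background 2.17%). The 4 members lower by over 1 log2 unit were Igfbp5 and Igfbp4, which bind insulin-like growth factors, Cxcr4, the chemokine receptor of migrating precursors, and Dio2, the deiodinase that activates thyroid hormone. Igfbp5 read 12.30 and 10.78 in the knockout, against 11.71 and 11.11 in wild-type nerve. Cxcr4 read 9.49 and 8.01 against 8.16 and 8.63. Fgf1 was the member higher by over 1 log2 unit, at 1.01, with 2.06 in the wild type. Of 23 measured genes of Notch, Wnt, BMP and Hedgehog signalling, 4 were lower by over 1 log2 unit in the knockout (background 3.77%) and none higher (background 3.54%). They were Sfrp2, a secreted Wnt binder, from 8.04 to 5.53, Dll3 (-1.37), Jag1, a Notch ligand (-1.32), and Ctnnb1, the Wnt effector beta-catenin (-1.09). In the wild type Sfrp2 differed by -1.01, Dll3 by -0.67, Jag1 by -0.02 and Ctnnb1 by -0.26.

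Astrocyte genes had no common direction, with a median of -0.01 over 29 genes in the knockout. In the wild type 5 were over 1 log2 unit higher (background 1.88%) and 3 lower (background 2.17%). In the knockout 4 were higher by that size (background 3.54%) and 4 lower (background 3.77%). The lower ones were Tnc, the matrix glycoprotein tenascin-C of immature astrocytes, which read 9.45 and 7.17 in the knockout and 7.89 on both wild-type arrays, Fabp7 of radial glia (-2.10), Sparcl1 (-1.10) and S100b. The higher ones were Mt2 (2.28) and Mt1 (1.49), metal-binding proteins, Atp1b2, a subunit of the sodium pump (1.49), and Clu, a secreted chaperone. In the wild type Mt2, Mt1 and Atp1b2 differed by 1.22, 1.02 and 0.29. Clu read 10.81 and 12.67 in the knockout, against 12.53 and 11.93 in wild-type nerve. Gfap, the intermediate filament of astrocytes, differed by 0.38 in the knockout, against -0.55 in wild-type nerve, and Sparc by -0.97 and 2.50.

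Microglial genes had a median of 0.05 over 31 genes in the knockout, against -0.38 in wild-type nerve, and the knockout difference was the larger in 24 of them, against 49.9% of all named genes. C1qa, of the first complement component, read 7.56 and 8.37 in the knockout, against 7.99 and 7.71 in wild-type nerve, and Cx3cr1, the fractalkine receptor, 8.31 and 9.16 against 8.68 and 8.29. Fcgr3 (1.21) and Gpnmb (1.73) were past 1 log2 unit in the knockout, and differed by -0.52 and 1.43 in the wild type. Fcer1g, an Fc receptor subunit, read 7.61 at day 10 and was not detected at day 14 in the knockout, at least 7.33-fold lower. In the wild type Fcer1g was undetected at both of these days. At day 35 it read 8.92 in the knockout and was undetected in wild-type nerve. Of 28 measured genes of antigen presentation and the interferon response, 26 were above 0 in the knockout (48.5% of all named genes). For wild-type nerve 8 of the 28 were above 0 (47.7%). Past 1 log2 unit, 5 were higher in the knockout (background 3.54%), against 5 in wild-type nerve (background 1.88%). By that size none was lower in the knockout (background 3.77%), whereas 2 were lower in wild-type nerve (background 2.17%). The medians were 0.46 and -0.36. Cd74, the invariant chain of class II molecules, read 6.57 and 8.42 in the knockout, against 8.45 and 7.66 in wild-type nerve. H2-T23, a class I molecule, read 4.96 and 6.88 against 6.80 and 6.35. Both were lowest in the knockout at day 10. H2-D1 was undetected at day 10 and read 7.60 at day 14, at least 7.02-fold higher, and in the wild type it was likewise undetected at day 10 and read 7.64 at day 14. STAT elements were found in 29.2% of the 24 genes of this list with a window, against 7.82% of measured genes and 9.55% of all genes with a window.

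The medians of the vessel lists had opposite signs in the genotypes. The 27 measured endothelial genes had a median of -0.48 in the knockout, against 0.29 in wild-type nerve, and the knockout difference lay below that of the wild type in 24 of them, against 50% of all named genes. Cldn5, the tight junction protein of brain endothelium, read 11.14 and 10.46 in the knockout, against 10.38 and 10.67 in wild-type nerve. Slco1c1 (-1.26), a thyroid hormone carrier of the blood-brain barrier, Aplnr (-1.18) and Cd34 (-1.09) were the members past 1 log2 unit downward. Gpr182 differed by 1.68 the other way. The 13 mural and smooth muscle genes had a median of -0.64 in the knockout, against 0.49 in wild-type nerve. Over the 10 of them detected on all 4 arrays, the medians were -0.51 and -0.03, so the positive wild-type median rested on the wider set. Acta2, smooth muscle actin, read 5.75 at day 10 and was undetected at day 14 in the knockout, while in the wild type it read 4.91 and 7.03. Actg2, Myh11 and Tpm2 were likewise lower in the knockout (-1.24, -0.92 and -1.70) and higher in the wild type (1.67, 1.65 and 0.78). A further Tpm2 probe, which was not detected on both knockout arrays, differed by -1.39 in the wild type.

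Genes of the sheath and its matrix were lower at day 14 in both genotypes. Of 45 measured, 13 were over 1 log2 unit lower in the knockout (background 3.77%) and 5 in the wild type (background 2.17%), with medians of -0.56 and -0.50. Col3a1, a fibrillar collagen, read 12.21 and 10.01 in the knockout, against 11.17 and 10.66 in wild-type nerve, although a dim further probe differed by 0.18. Col1a2 (-1.75), Col1a1 (-1.17), Col4a1 (-1.26) and Col4a2 (-1.19) gave lower values as well. Fbln2, a matrix protein of vessels and meninges, read 9.65 and 7.79 against 8.23 and 8.54 in the wild type. Col3a1 and Fbln2 were highest, among the 4 arrays, in the knockout at day 10.

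**Figure D4:**
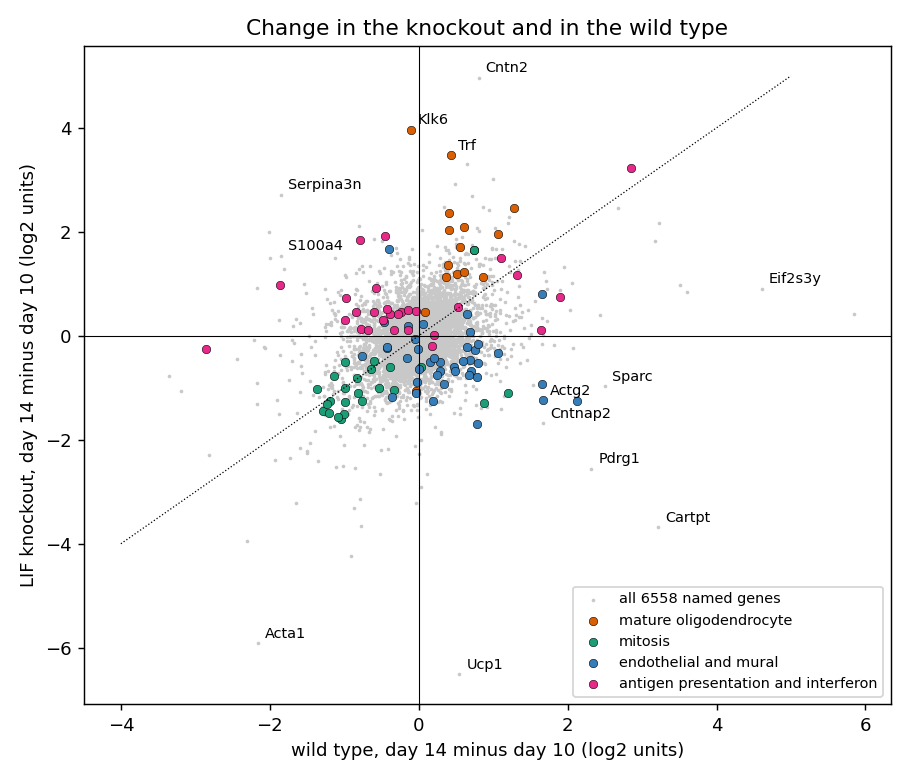
Day 14 minus day 10 difference, in log2 units, in the wild type (horizontal axis) and in the LIF knockout (vertical axis) for every named gene, with 4 groups of lists in colour. The dotted line marks equal differences. Mature oligodendrocyte genes lie above it in 15 of 16 cases, and endothelial genes lie below it in 24 of 27.

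Markers of tissues next to the nerve gave some of the largest differences between the 2 knockout pools. All 21 measured skeletal muscle genes were lower at day 14 in both genotypes, where 51.4% and 52.1% of all named genes were. By over 1 log2 unit, 15 were lower in the knockout (background 3.77%), against 11 in wild-type nerve (background 2.17%), with medians of -1.75 and -1.02. At day 10 the muscle genes were not higher in the knockout pool as a group, with a median gap to the wild type of -0.43. Acta1, skeletal actin, read 10.47 at day 10 and was undetected at day 14 in the knockout, at least 53.3-fold lower, against 10.38 and 8.22 in the wild type. Atp2a1, the calcium pump of fast muscle, read 9.29 and 5.63 against 9.42 and 8.64. Ucp1, the uncoupling protein that defines brown fat, read 11.09 at day 10 and was undetected at day 14, at least 81.5-fold lower, against 6.19 and 6.73 in the wild type. Cox8b (at least 18.7-fold lower) and Adipoq, the fat hormone adiponectin (at least 8.77-fold lower), were also undetected at day 14, and 7 of 10 fat genes were over 1 log2 unit lower in the knockout (background 3.77%). The knockout pool of day 10 was the highest of the 4 arrays in Ucp1, Cox8b and Adipoq. Car3, a further member of the fat list, had the lowest difference of all named genes detected on both knockout arrays. It read 9.05 and 5.11 in the knockout, against 8.61 and 6.31 in wild-type nerve, so it was lower at day 14 in both genotypes.

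All 5 measured genes of red blood cells were lower, with a median of -2.55 in the knockout, against -1.11 in wild-type nerve. Hba-a1, an alpha globin, read 14.02 and 11.49 in the knockout, against 13.36 and 12.25 in wild-type nerve. Hbb-b2, a beta globin, read 12.34 and 9.02 against 9.49 and 8.62. Genes of rods went the other way: Gnat1, rod transducin, read 4.84 and 7.76 in the knockout, against 4.52 and 5.0 in wild-type nerve, and Sag, rod arrestin, 7.01 and 8.33 against 4.90 and 5.27. The pigment cell genes Dct and Pmel differed by -1.48 and -1.18 in the knockout, against -1.28 and -1.10 in wild-type nerve, and Tyrp1 was undetected at day 14 in the knockout, at least 2.46-fold lower. Over all 15 genes of retina, pigment and lens the median was 0.45 in the knockout, against 0.15 in wild-type nerve. Of 8 measured pituitary and neuroendocrine genes 1 passed 1 log2 unit, Cartpt, and Cga was detected at day 10 alone. Of 9 Schwann cell genes 3 were measured, Drp2 at -0.59, Gldn at 0.92, and Fxyd3, which was detected at day 14 alone. These marker differences, which went in both directions, lie between the same pools as the oligodendrocyte, vessel and matrix differences given above. Their part in those differences was not tested.

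**Figure D5:**
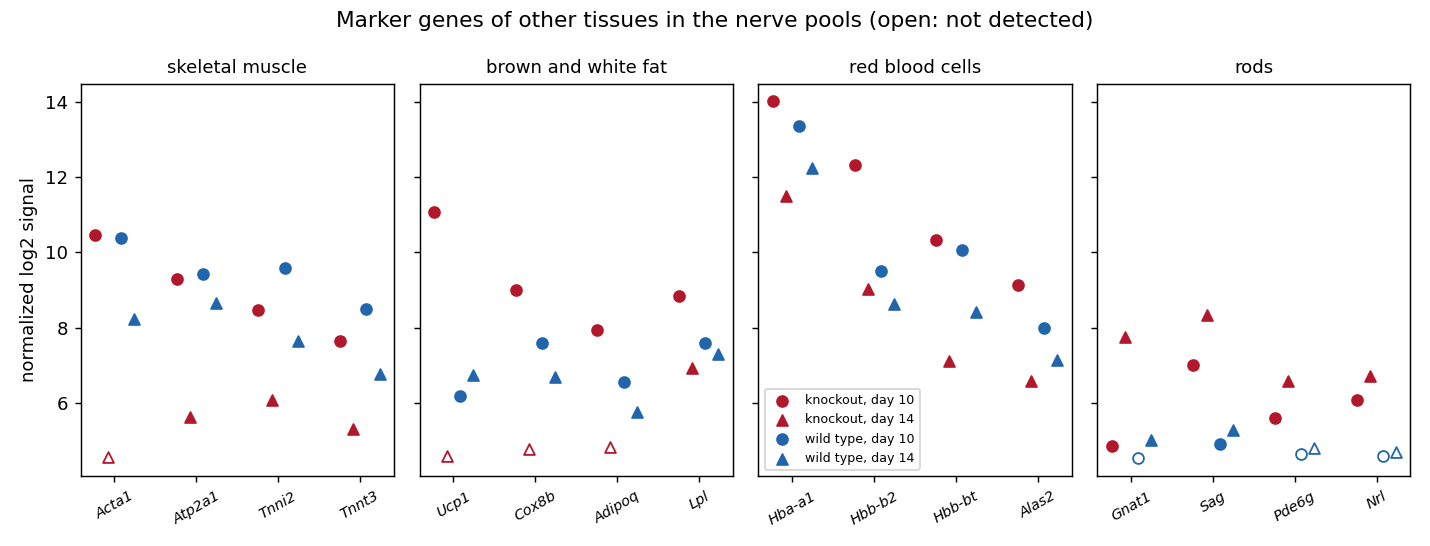
Normalized log2 signal of 4 marker genes each of skeletal muscle, fat, red blood cells and rods on the 4 arrays of days 10 and 14; circles are day 10, triangles day 14, and open symbols were not detected. Muscle, fat and blood markers are higher in the knockout at day 10 than at day 14, and rod markers are higher in the knockout than in the wild type.

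Genes of basic cell functions had medians closer to 0 than those of muscle, fat and blood genes. Cytosolic ribosomal protein genes had a median of -0.36 over 41 genes in the knockout, against -0.19 in wild-type nerve, and 36 and 32 of them were below 0, against 51.4% and 52.1% of all named genes. Respiratory chain complex I (-0.07), complexes II to IV (-0.06), ATP synthase (-0.17) and proteasome subunits (-0.04) had medians near the median of all named genes. Within complexes II to IV, the members past 1 log2 unit, Cox8b and Cox6a2, are the forms of fat and muscle. Of the proteasome genes Psmc1 alone passed it, at 2.45 in the knockout, against 2.68 in wild-type nerve. Tubulin genes had a median of 0.04, and Tubb4a, the tubulin of oligodendrocytes, read 11.07 and 11.99 in the knockout, against 11.81 and 12.06 in wild-type nerve. Immediate early genes had a median of 0.03. Within that list Fos (-1.72), Egr1 (-1.27) and Dusp1 (-1.05) were past 1 log2 unit in the knockout, and differed by -0.83, -0.44 and 0.09 in the wild type. Genes of stress, hypoxia and glycolysis had a median of 0.26 in the knockout, -0.16 when arrays were not scaled to each other, and -0.15 in the wild type. Hspb1 (1.36) and Ddit3 (1.02) were the members past 1 log2 unit. Axonal and neuronal genes had a median of 0.24, which was -0.15 without scaling. Among them Nefh, the heavy neurofilament (1.23), Syn1 (1.16) and Mapt, the tau protein (1.05), were higher by over 1 log2 unit in the knockout, and Map2 was not detected there at day 14. In the wild type Nefh, Syn1 and Mapt differed by 1.68, 0.06 and 0.37.

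Outside the lists, 3 genes stood among the 15 highest in the knockout. B3galt5, a galactosyltransferase, read 5.39 and 8.40 in the knockout, against 7.59 and 8.60 in wild-type nerve. Tmod1, which caps actin filaments, read 4.87 and 7.56 against 7.01 and 7.73. Adssl1, an enzyme of purine nucleotide synthesis, read 7.77 and 10.25 against 9.34 and 10.20, though a further probe that was not detected on both arrays differed by 0.48. Myl2, a myosin light chain of heart and slow muscle, was among the 15 lowest, with 7.24 and 5.02 against 6.19 and 4.69. The first 3 genes shared the pattern of Trf and Gjb1, with the knockout at day 10 below the other 3 arrays. Prdx2, a peroxidase of blood and other cells, and Csrp1, a protein of smooth muscle and other cells, were higher by 3.60 and 3.50 in the wild type and by 0.85 and 0.98 in the knockout. A further Prdx2 probe differed by less in the wild type, at 1.79, and by 0.64 in the knockout.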

How the data were processed

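Whole optic nerve RNA of 6 pools, 1 array per genotype and age, was measured on MouseRef-8 bead arrays of 1 colour. Groups came from the labels. Per the file headers, BeadStudio 1.5.0.34 exported the deposited files without normalization, giving each probe's mean intensity on a linear scale. The deposited detection score, a fraction from 0 to 1 per the file headers, was taken as 1 minus a detection p. A series-wide table that the authors deposited holds the same intensities times 1 factor per array, and 15646 of its 24613 probes are blank. Per-array files carry no gene names, so the table's probes were linked to file rows by value, within 0.05 signal units. The link gave 1 row for 8934 probes, and 8047 of them had 1 gene symbol (6656 genes) in the platform annotation, while 887 had none. The gene number in the design identifier was equal in 97.1% of 2998 probes linked on all arrays. Symbols were checked against GRCm38.p6, which replaced 0.

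Background was corrected with the normexp model of limma 3.58.1 (R 4.3.3), with an offset of 16 and negative controls inferred from the detection p-values. Quantile normalization over the 6 arrays and log2 followed. The steps were tested on simulated data. Probes entered if detected (p below 0.05) on at least 1 knockout array, and the brightest probe stood for a gene. A difference past 1 log2 unit, 2-fold, was counted. With 1 array per group there is no test, and the number of arrays limits the precision. Where a gene was detected at 1 age only, the fold is a lower bound, against the higher of its own signal and the lowest signal of a detected probe (4.79 at day 10, 4.74 at day 14).

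Named are the 15 highest and 15 lowest genes detected on both knockout arrays, up to 6 bounds of at least 4-fold each way, the members of the oligodendrocyte and LIF lists, up to 6 members of other lists with their defining genes, and the 10 genes that differed most from the wild-type change each way. A few further list members were named after their values were seen. The 40 gene lists and the members were chosen with earlier results of these data known. The alternatives were no between-array scaling, median centring, scaling over the first slide alone, no background correction, an offset of 50, detection p below 0.01, the mean over a gene's probes, and the authors' deposited table. Detection on all 4 arrays of days 10 and 14 was added after seeing the data. Probes without a name were counted and are not named.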

Additional observations from a re-analysis of the deposited data

Results flagged for a closer look

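In 7 genes detected on all 4 arrays of days 10 and 14, the day 14 minus day 10 difference passed 1 log2 unit in both genotypes but in opposite directions. The difference between the genotypes was not tested, since each value is 1 pair of pools. Serpina3n, a protease inhibitor, differed by 2.71 in the knockout, against -1.85 in wild-type nerve. S100a4, a calcium-binding protein of fibroblasts and immune cells, differed by 1.54 and -1.85, reading 8.69 and 10.23 in the knockout. Cyp4f14, a cytochrome P450 enzyme, differed by 1.0 and -1.54. Cartpt, a neuropeptide precursor, differed by -3.69 and 3.21, reading 10.37 and 6.68 in the knockout, against 6.42 and 9.63 in wild-type nerve. Pdrg1 differed by -2.56 and 2.32, and Cntnap2 by -1.68 and 1.67. Actg2, a smooth muscle actin, differed by -1.24 and 1.67. The wild-type pool of day 10 is the one in which Eif2s3y was not detected, and its part in these differences was not tested.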

How the results depend on the processing

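No paired analysis was possible because each group holds 1 array and the labels carry no replicate numbers, and no array could be left out for the same reason. Counts of probes past 1 log2 unit depended on the processing. In the knockout, the 373 higher probes became 135 without scaling between arrays, 205 without background correction, 226 with an offset of 50 and 104 in the authors' deposited table, which holds 8390 of the probes. The 373 lower probes became 1164, 161 and 172 under the first 3 of these. In the wild type, the 206 higher probes became 84 without background correction, 93 with the offset of 50 and 38 in the authors' deposited table, and the 202 lower ones 91, 99 and 123. Without scaling between arrays, which moved the median of all named genes to -0.40, the knockout medians of 10 lists changed sign. Of these, the LIF list (-0.086) and the stress list (-0.16) had normalized medians above 0.25. The others had smaller ones: sterol regulation (-0.23), fatty acid synthesis (-0.17), axons and neurons (-0.15), pituitary (-0.15), precursors (-0.31), microglia (-0.23), immediate early genes (-0.41) and tubulins (-0.46). Of those 8, 6 also lay below 0 in the authors' deposited table, the exceptions being fatty acid synthesis and pituitary. Requiring detection on all 4 arrays of days 10 and 14, an alternative added after seeing the data, left the probe counts within 1.5 times and turned the wild-type median of the mural list to -0.026. The skeletal muscle median was -1.08 without background correction and -1.13 with the offset of 50. No named gene with a knockout difference past 1 log2 unit reversed under the alternatives run on single genes. The mean over a gene's probes was run on lists alone. Further probes of Sox2, Col3a1 and Car2 differed in sign, as given above. Signal near background, where a detection call decides the fold, limits the dim genes.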
